A study of Mus musculus with 11 samples.

Results

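The genotype by macrophage type interaction was measured for 17475 genes in all 11 libraries of the series. For each gene it is the mean log2 level of tumour-associated macrophages (TAMs) minus that of mammary tissue macrophages (MTMs) in MYC-PyMT mice, minus the same difference in control-PyMT mice. A positive value means that the TAM level stood higher against the MTM level in MYC mice than in control mice, and a negative value that it stood lower. No gene was chosen on its values: the rule took every gene of the deposited table and every library, 17475 of 17475 and 11 of 11.

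All mice were female, backcrossed to B6 and carried PyMT, the polyoma middle T oncogene, which gives mammary tumours. The MYC mice carried in addition S100a8-cre and Rosa26-LSL-MYC, a MYC transgene behind a stop cassette that Cre removes in cells that have expressed S100a8, a gene of the myeloid lineage. Both genotypes were lethally irradiated at 7 weeks of age, received total marrow cells of wild-type B6 donors, and were switched 2 weeks later to a low protein diet that lasted 6 weeks. By this description, blood cells derived from the donor marrow would carry no transgene in either genotype, and only cells left from the host could carry it. The origin of the sorted cells was not tested. TAMs of the tumour parenchyma were sorted as F4/80+ Vcam+ cells and MTMs of the stroma as F4/80+ Vcam- FOLR2+ cells, after selection for CD45 and against SiglecF, Ly6G, B220 and Ly6C. There were 3 libraries of control TAMs and 3 of control MTMs (mice 1, 3 and 5), 3 of MYC TAMs (mice 2, 4 and 6) and 2 of MYC MTMs (mice 2 and 4). Values below are listed in that order of mice. With 5 mice that gave both cell types, an exact permutation test over mice cannot go below 0.1, so the tests reported are those of a linear model fitted with limma across all genes and adjusted over them. Fewer cells of a type and less RNA per cell cannot be told apart in such bulk libraries.

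Macrophages take up dead cells, lipoproteins and matrix, break them down in acid lysosomes and present peptides on MHC molecules. Those that live in the mammary stroma are long-lived, hold scavenger and lectin receptors, and are marked by FOLR2. Those inside mammary tumours arise largely from blood monocytes, take up Vcam1 as they mature and can divide in place. An interaction asks whether the contrast between these populations is itself different between genotypes, which neither contrast shows alone.

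Some features of the libraries bear on all values. The levels behaved as the log2 of 1 plus a depth-scaled, length-divided read number, and the relative depths inferred from their spacing ran from 0.815 (MYC TAM mouse 4) to 1.05. That library listed 581 genes without a read, against 2072 to 3522 in the others. Ddx3y, a gene of the Y chromosome, was read at 4.37, 4.74 and 4.50 in MYC TAMs beside 2.89 and 3.27 in MYC MTMs, and at 0.01 to 0.06 in the 6 control libraries, although every mouse is labelled female. Its interaction of 1.46 ± 0.26 (SE) passed with a limma adjusted p of 0.0339. Kdm5d, Eif2s3y and Uty were likewise higher in every MYC library than in every control library. Their interactions did not pass (limma adjusted p = 0.504, 0.188 and 0.647), and in mouse 2 Uty was at 0.98 in TAMs and 1.02 in MTMs. The sex of the marrow donors is not given, so whatever separates the Y-linked reads cannot be told apart from the genotype. Markers of mammary epithelium, 28 in number, had a mean log2 level of 3.94, 4.57 and 3.77 in control TAMs and 3.56, 4.04 and 3.63 in control MTMs. In MYC TAMs it was 2.98, 2.18 and 1.28, and in MYC MTMs 3.13 and 3.23. The summed linear level of these markers ran from 1637 to 3397 in control TAMs against 1382 to 2474 in control MTMs, 84.1 to 725 in MYC TAMs beside 649 to 820 in MYC MTMs, and no marker lacked reads in every library of a group.

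The genes of the sort gate were compared with the labels. Vcam1, the adhesion molecule that defines the TAM gate, was read at 8.60, 7.64 and 8.57 in control TAMs and 5.31, 6.86 and 5.25 in control MTMs. In MYC TAMs it was at 0.96, 1.61 and 2.82, in the same range as the 2.32 and 2.31 of MYC MTMs and below every control library. The MYC TAM libraries thus went against the Vcam+ part of their gate at the mRNA level, and the Vcam1 interaction of -2.98 ± 0.81 did not pass (limma adjusted p = 0.147), except with array weights (0.046). Folr2, the folate receptor that defines the MTM gate, followed it in both genotypes, with 0.96 to 1.77 in control TAMs against 7.67 to 8.05 in control MTMs, 1.07 to 3.62 in MYC TAMs beside 8.45 and 8.07 in MYC MTMs. Its interaction was 0.24 ± 0.84 (limma adjusted p = 0.92). All 10 macrophage lineage genes examined were read in every library, and 2 of them had a negative interaction that passed, as described with the negative genes. Myc itself was at 2.66, 3.18 and 3.11 in control TAMs against 2.53, 2.62 and 2.75 in control MTMs, 2.16, 1.92 and 1.78 in MYC TAMs beside 2.87 and 3.02 in MYC MTMs, with an interaction of -1.33 ± 0.28 that did not pass (limma adjusted p = 0.0622), while it passed under 5 of 23 alternatives, the mouse as a random effect among them (adjusted p = 0.0402). Whether reads of the transgene count toward this symbol is not given in the sources used here. S100a8, whose promoter drives the Cre, had an interaction of 1.38 ± 0.86 (limma adjusted p = 0.665).

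The interaction passed an adjusted p of 0.05 for 216 genes, which is 1.24% of those tested, and 1897 genes had an unadjusted p under 0.05. Of the 216 genes 42 were positive (0.240% of all genes) and 174 were negative (0.996%). The size of the interaction among the 216 had a median of 1.88 on the log2 scale, against 0.23 over all genes, and the median of all signed values was 0.01. Over the 9375 genes with a mean level of 1 or more the median of signed values was -0.15. With the mouse as a fixed block, a model in which MYC TAM mouse 6 has no partner and adds nothing, 31 genes passed, 8 positive and 23 negative, and 27 of these were among the 216. Of the called genes named here, Gpnmb, Atp6v0d2, Hpse, Rgs18, Siglece, Slco2b1, Stab1, Rrm2, Ly6a and Tmem176b kept their call in that fit, beside 11 that passed under every alternative and are listed at the end, and all others lost it. With the mean level of epithelial markers as a covariate Rgs18, Slco2b1, Stab1, Csf1r, Klra3, Tgfbi, Mmp2 and Abca9 kept theirs beside the same 11, and all other called genes named here lost it. With the mouse as a random effect 325 passed, among them all 216. Without MYC MTM mouse 2 only 21 genes passed, and without MYC MTM mouse 4 only 31. In each of these fits the comparison rests on a single MYC MTM library, whose spread is taken to be that of the other groups.

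Most of the negative genes had their lowest level in MYC TAMs. This held for 162 of the 174 (93.1%), where 37.6% of all genes had their lowest mean in that group. The highest mean was in control TAMs for 123 (70.7%, against 25.6% of all genes). Their median TAM minus MTM difference was 0.48 in control mice and -1.29 in MYC mice. Among the 42 positive genes control TAMs were lowest for 38 (90.5%, against 27.1% of all genes) and MYC TAMs highest for 33 (78.6%, against 31.0%). Their median differences were -1.07 in control and 1.03 in MYC mice. The cell type difference pointed in opposite directions in the genotypes for 158 of the 216 genes (73.2%), against 46.8% of all genes. A call for a large interaction itself favours such extremes and opposite signs, so these shares describe the called genes and are no separate support. On the linear scale the sign of the interaction was the same for 213 of the 216, the exceptions being F13a1, Abca9 and Fcrls. In the plot of the cell type difference in both genotypes, the genes of the interaction lie off the diagonal on either side.

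**Figure D1:**
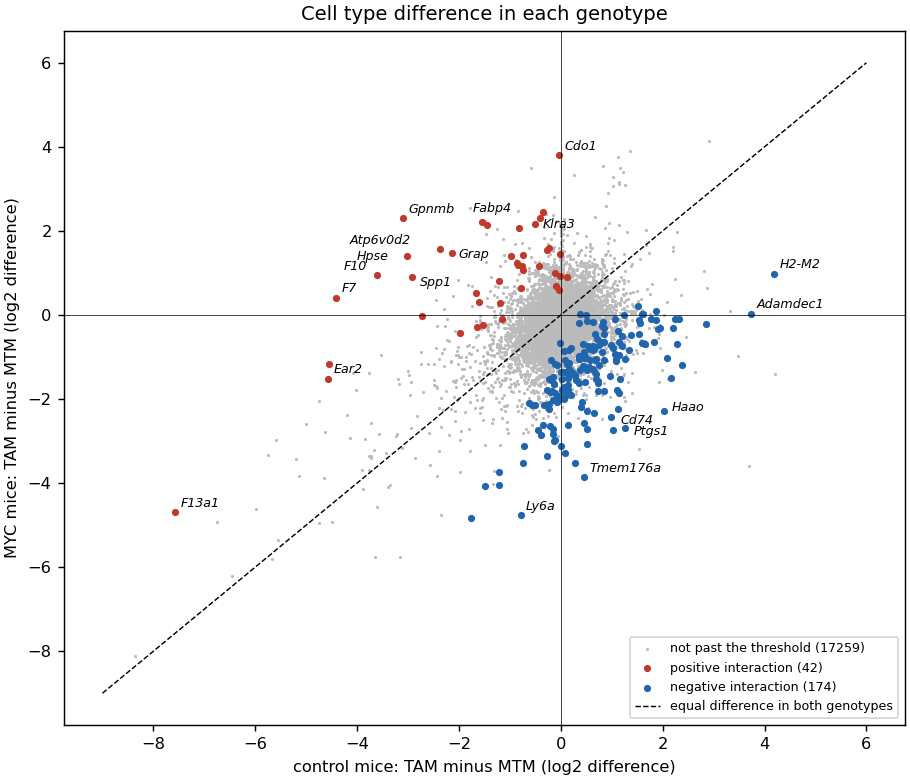
Each point is a gene, with the TAM minus MTM difference of mean log2 levels in control mice on the horizontal axis and in MYC mice on the vertical axis. Points on the dashed line have equal differences. The 42 positive genes lie above it and the 174 negative genes below it, most of the latter below 0 on the MYC axis.

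Within mice, the TAM minus MTM difference of the 2 MYC mice did not overlap that of the 3 control mice for 5502 genes (31.5% of all genes), 2277 with MYC mice higher and 3225 with MYC mice lower. All 216 genes past the threshold were among them, which is no separate evidence, since the same library values gave the calls. With the mouse as a fixed block 27 of the 216 passed.

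Of the 42 positive genes the cell type difference passed in MYC mice alone for 20, in control mice alone for 15 and in both for 7. Those described first were highest in MYC TAMs. Gpnmb, a transmembrane glycoprotein of lysosomes in lipid-laden macrophages and osteoclasts, had the largest positive value of those named. Its log2 level was 3.32, 3.61 and 4.59 in control TAMs against 7.15, 6.21 and 7.47 in control MTMs, 13.49, 13.24 and 13.86 in MYC TAMs beside 10.92 and 11.55 in MYC MTMs. No group overlapped another: control TAMs were lowest and MYC TAMs highest. The within-mouse differences were -3.83, -2.61 and -2.88 in control mice and 2.58 and 1.69 in MYC mice, and the interaction was 5.40 ± 0.60 (limma adjusted p = 0.00754), a 42.3-fold change of the ratio. It lost its call without MYC MTM mouse 2 (adjusted p = 0.0506) and with the epithelial marker level as a covariate (0.0525). Gpnmb lies at chr6:49036546-49070929 on the plus strand of GRCm38. The 300 bases around its start (chr6:49036268-49036567, RefSeq on GRCm38.p6) are shown because it led the positive genes. The capitals mark a TGANTCA match, the letters bound by AP-1 factors, searched on both strands after this sequence had been seen.
Gpnmb: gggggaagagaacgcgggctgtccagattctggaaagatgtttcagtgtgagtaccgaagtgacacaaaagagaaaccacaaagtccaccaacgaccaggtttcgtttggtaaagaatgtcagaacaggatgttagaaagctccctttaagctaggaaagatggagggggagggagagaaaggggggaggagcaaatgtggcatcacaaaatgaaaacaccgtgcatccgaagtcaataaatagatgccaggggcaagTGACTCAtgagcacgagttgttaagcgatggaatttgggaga

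Matches to TGANTCA were present in 10.3% of the 155 promoters found for genes past the threshold and in 7.9% of all 27025 promoters, and CACGTG, the E-box that MYC binds, in 9.0% and 7.2%. These are matches of letters in a window and say nothing on binding.

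Atp6v0d2 encodes the d2 subunit of the vacuolar proton pump, known from osteoclasts and macrophages. It was at 1.01, 1.00 and 1.75 in control TAMs against 3.94, 3.03 and 3.92 in control MTMs, 9.60, 9.94 and 9.89 in MYC TAMs beside 7.86 and 8.65 in MYC MTMs. The order of groups was that of Gpnmb, again without overlap, and the interaction was 3.93 ± 0.47 (limma adjusted p = 0.00882). Hpse, the heparanase that cuts heparan sulfate chains of the matrix, stood at 0.75, 0.99 and 2.00, then 4.35, 3.75 and 4.69 in control TAMs and MTMs. MYC TAMs had 7.62, 7.87 and 7.96 of it and MYC MTMs 6.30 and 6.53, and its interaction was 4.42 ± 0.50 (limma adjusted p = 0.00754). Hpse kept its call with the fixed block (adjusted p = 0.0365) and so did Atp6v0d2 (0.0437) and Gpnmb (0.0437). With the epithelial covariate Hpse (adjusted p = 0.0526) and Atp6v0d2 (0.0604) lost it, as both did without MYC MTM mouse 2, and Atp6v0d2 lost it also without MYC TAM mice 4 and 6.

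Fabp4 and Cdo1 were low in both control populations. Fabp4, a fatty acid carrier of adipocytes and macrophages, was at 0.08, 1.49 and 1.36 in control TAMs against 2.54, 2.48 and 2.27 in control MTMs, 8.46, 7.60 and 8.86 in MYC TAMs beside 5.69 and 6.63 in MYC MTMs. The interaction of Fabp4 was 3.60 ± 0.65 (limma adjusted p = 0.0347, and 0.135 with the fixed block). Cdo1, the dioxygenase that starts the breakdown of cysteine, was at 0.42, 1.07 and 1.67 in control TAMs and 1.31, 1.36 and 0.61 in control MTMs, groups that overlap. In MYC mice it was at 6.79, 7.00 and 6.49 in TAMs and 2.01 and 3.92 in MTMs, which gave an interaction of 3.84 ± 0.72 (limma adjusted p = 0.04, and 0.115 with the fixed block). For these genes the MYC TAMs stood apart from every other library.

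Grap, an adaptor protein of lymphocyte and myeloid signalling, had the smallest adjusted p of all genes. Its levels were 0.87, 0.71 and 0.91 in control TAMs against 3.04, 2.84 and 3.05 in control MTMs, 5.21, 5.30 and 5.18 in MYC TAMs beside 3.67 and 3.84 in MYC MTMs. The groups did not overlap and each was tight, so that within-mouse differences were -2.17, -2.12 and -2.14 in control mice against 1.55 and 1.46 in MYC mice. The interaction was 3.62 ± 0.20 (limma adjusted p = 0.000224), and the gene passed under every one of 23 alternatives. Grap overlaps Slc5a10 on the opposite strand, and whether the counting used strand is not given, so part of its reads may belong to that gene.

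S100a1, a calcium-binding protein, showed the same order at a high level. It was at 6.70, 6.91 and 6.74 in control TAMs against 7.46, 7.56 and 7.57 in control MTMs, 9.40, 9.46 and 9.52 in MYC TAMs beside 7.94 and 8.12 in MYC MTMs, an interaction of 2.18 ± 0.18 (limma adjusted p = 0.0015). Lrrc27, with an interaction of 2.82 ± 0.24, and S100a1 were the other positive genes that passed under all 23 alternatives, and both were singled out after their values were seen. Tnfrsf26, a receptor of the tumour necrosis factor family, had an interaction of 3.76 ± 0.52 (limma adjusted p = 0.0129). Klra3, a receptor of the Ly49 family of natural killer cells, was at 0.04 to 0.15 in control TAMs against 0.15 to 0.82 in control MTMs, 5.83, 5.82 and 5.27 in MYC TAMs beside 3.32 and 3.64 in MYC MTMs. Its interaction was 2.66 ± 0.35 (limma adjusted p = 0.0121), and reads of near-identical family members may be split among them.

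A second kind of positive gene was lower in control TAMs than in the other groups, which lay nearer to one another. Over all kinds together, 21 of the 42 positive genes were under a log2 level of 1 in every control TAM library, as were 42.3% of all genes. Grap and Klra3, described above, are among the 21 and Spp1 is not, so the count does not measure this kind. F7, which encodes a clotting protease, was at 0.48, 0.63 and 0.10 in control TAMs against 5.90, 3.67 and 4.86 in control MTMs, 4.50, 4.11 and 5.63 in MYC TAMs beside 3.89 and 4.80 in MYC MTMs. Control TAMs stood apart, while the other groups overlapped one another, and the interaction was 4.81 ± 0.84 (limma adjusted p = 0.0311, and 0.111 with the fixed block). F10, the clotting protease that F7 activates, was at 0.12, 0.15 and 0.14 in control TAMs against 4.54, 2.74 and 3.98 in control MTMs, 4.11, 3.65 and 4.61 in MYC TAMs beside 3.17 and 3.19 in MYC MTMs. Its interaction was 4.56 ± 0.61 (limma adjusted p = 0.0126, and 0.0704 with the fixed block). F7 (chr8:13026034-13035809) and F10 (chr8:13037308-13056676) are neighbours on the plus strand, 1.5 kb apart. Spp1, the secreted matrix protein osteopontin, was at 4.64, 6.12 and 5.02 in control TAMs and 8.07, 7.68 and 8.78 in control MTMs. MYC TAMs, at 8.03, 8.24 and 8.71, and MYC MTMs, at 7.53 and 7.31, lay close to control MTMs, and the interaction was 3.83 ± 0.59 (limma adjusted p = 0.0184, and 0.115 with the fixed block).

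Rgs18, F13a1 and Ear2 were lower in TAMs than in MTMs in each mouse of both genotypes, with a narrower gap in MYC mice. Rgs18, a regulator of G protein signalling in blood cells, was at 0.03 to 0.10 in control TAMs against 4.22 to 4.94 in control MTMs, 1.92, 2.41 and 2.93 in MYC TAMs beside 3.45 and 3.70 in MYC MTMs. The interaction of Rgs18 was 3.40 ± 0.40 (limma adjusted p = 0.00882). F13a1, a clotting transglutaminase of resident macrophages and monocytes, was at 1.08, 0.92 and 1.24 in control TAMs against 9.19, 7.80 and 8.98 in control MTMs, 4.49, 4.94 and 4.66 in MYC TAMs beside 9.79 and 8.99 in MYC MTMs. Its interaction was 2.89 ± 0.52 (limma adjusted p = 0.0347), and on the linear scale the sign was the opposite. Ear2, a ribonuclease of eosinophils and alternatively activated macrophages, differed in where the gap narrowed. MYC TAMs had 0.12 to 0.29 of it and control TAMs 0.45 to 0.66, whereas MTMs went from 5.83, 4.88 and 4.69 in control to 1.13 and 2.32 in MYC mice, and the interaction of 3.05 ± 0.53 (limma adjusted p = 0.0308) came from the MTM side. The plot of the largest positive interactions shows these patterns library by library.

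**Figure D2:**
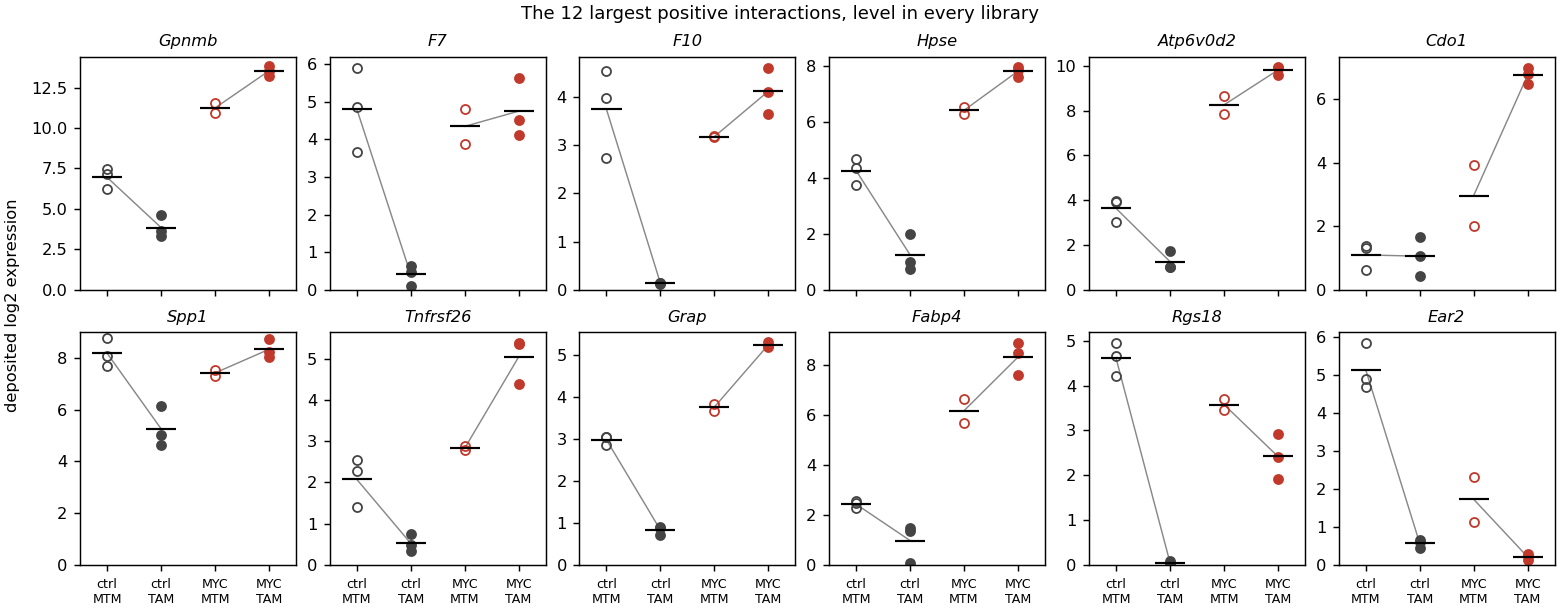
Deposited log2 level (vertical axis, from 0, own scale per gene) of the 12 named genes with the largest positive interaction. Points are libraries, open for MTMs and filled for TAMs, dark for control and red for MYC mice, with group means as bars joined within a genotype. The joining line falls in control mice for all 12 genes, by only 0.04 for Cdo1, and climbs in MYC mice for all except Rgs18 and Ear2.

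The negative genes were led by Tmem176a, a member of the Ms4a-related channel family of antigen-presenting cells. Its levels were 8.89, 7.91 and 8.80 in control TAMs against 7.98, 8.34 and 7.91 in control MTMs, 3.67, 4.47 and 3.32 in MYC TAMs beside 7.72 and 7.65 in MYC MTMs. The control groups overlapped and the MYC TAMs lay below every other library. Its interaction was -4.33 ± 0.49 (limma adjusted p = 0.00754), and it lost its call with the fixed block (0.061), with the epithelial covariate (0.0525) and without MYC MTM mouse 2 (0.0506). Tmem176b, the family member that overlaps it head to head on chromosome 6, had an interaction of -3.12 ± 0.51 (limma adjusted p = 0.0238). Their windows of 300 bases share 155 bases, and reads from the overlap cannot be assigned without strand. The window of Tmem176a, chr6:48841233-48841532 on the plus strand, is shown as the one shared by the pair, with no motif searched present in it and so no capitals.
Tmem176a: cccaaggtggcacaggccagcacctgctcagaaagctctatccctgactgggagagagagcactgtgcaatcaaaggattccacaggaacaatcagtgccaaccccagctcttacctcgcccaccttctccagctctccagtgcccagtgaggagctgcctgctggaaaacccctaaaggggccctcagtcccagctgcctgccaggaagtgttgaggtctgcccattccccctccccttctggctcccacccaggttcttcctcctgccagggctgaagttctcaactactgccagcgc

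Haao and Ptgs1 changed direction between the genotypes. Haao, an enzyme of the kynurenine pathway of tryptophan breakdown, was at 5.55, 5.58 and 4.81 in control TAMs against 3.57, 3.47 and 2.83 in control MTMs, 0.08, 0.74 and 0.50 in MYC TAMs beside 2.45 and 3.01 in MYC MTMs. TAMs thus held more of it than MTMs in each control mouse, by 1.98, 2.11 and 1.98, and less in each MYC mouse, at -2.37 and -2.27. The interaction of Haao was -4.32 ± 0.45 (limma adjusted p = 0.00551). Ptgs1, the constitutive cyclooxygenase of prostaglandin synthesis, was at 6.99, 6.39 and 6.47 in control TAMs against 5.57, 5.39 and 5.11 in control MTMs, 0.60, 1.16 and 1.08 in MYC TAMs beside 3.63 and 3.64 in MYC MTMs, with an interaction of -3.95 ± 0.32 (limma adjusted p = 0.0015). No group overlapped another for Ptgs1, and for Haao only the MTM groups did. Both genes passed under all 23 alternatives.

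Other negative genes overlapped between the control populations and were lowest in MYC TAMs. Ighm, the constant part of the IgM heavy chain, was at 5.42, 5.75 and 5.24 in control TAMs against 5.14, 5.41 and 5.01 in control MTMs, 0.46, 0.90 and 0.46 in MYC TAMs beside 3.87 and 4.40 in MYC MTMs. Its interaction was -3.81 ± 0.32 (limma adjusted p = 0.0015). The other 11 measured markers of B and plasma cells did not pass, and the median over all 12 was -0.05. The summed linear level of the 12, which includes Ighm, was 53.7 to 68.1 in control TAMs, 53.7 to 70.8 in control MTMs, 5.08 to 13.6 in MYC TAMs and 39.9 to 47.8 in MYC MTMs, with Pax5 at no reads in control TAMs, and the part of such cells in the Ighm value was not tested. Col14a1, a fibril-associated collagen, was at 5.48, 5.14 and 5.08, then 5.20, 5.42 and 4.81 in control TAMs and MTMs, 1.29, 1.42 and 1.46 in MYC TAMs beside 4.79 and 4.56 in MYC MTMs, an interaction of -3.37 ± 0.28 (limma adjusted p = 0.0015). Cx3cr1, the fractalkine receptor of monocytes and macrophages, was at 5.17, 5.06 and 5.16 in control TAMs against 4.47, 5.07 and 4.32 in control MTMs, 0.36, 0.41 and 0.95 in MYC TAMs beside 3.30 and 3.29 in MYC MTMs, an interaction of -3.23 ± 0.34 (limma adjusted p = 0.00551). MYC TAMs lay below all other libraries for each of these, and all 3 genes passed under every one of the 23 alternatives. The annotated span of Cx3cr1 overlaps other coding genes, which leaves its reads less certain.

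Both macrophage lineage genes that passed were lowest in MYC TAMs, below every other library. Csf1r, the receptor for the growth factor on which macrophages depend, was at 10.74, 10.43 and 10.25 in control TAMs against 10.24, 10.01 and 9.91 in control MTMs, 7.59, 8.03 and 8.09 in MYC TAMs beside 10.03 and 9.92 in MYC MTMs. Its interaction was -2.50 ± 0.30 (limma adjusted p = 0.00882). Emr1, the older symbol of the gene for F4/80 on which both populations were sorted, was at 9.93, 9.40 and 9.56, then 9.54, 9.96 and 9.61 in control TAMs and MTMs, 7.50, 7.57 and 8.37 in MYC TAMs beside 9.89 and 9.88 in MYC MTMs. Its interaction was -1.99 ± 0.38 (limma adjusted p = 0.0436, and 0.0787 with the fixed block). Of the other 8 lineage genes none passed, with values from -2.05 for Fcgr1 to 1.03 for Cd68. Siglece, an inhibitory receptor that binds sialic acid, had an interaction of -3.76 ± 0.44 (limma adjusted p = 0.00882). Slco2b1, an organic anion transporter, had -3.59 ± 0.47, and Stab1, a scavenger receptor of resident macrophages, -3.08 ± 0.42, with limma adjusted p of 0.0121 and 0.0129. Stab1 shares reads of its span with Nt5dc2 if strand was not used. Ly6a, a surface antigen that interferons induce, stood highest in MYC MTMs, at 7.84 and 7.92 against 4.54 to 5.99 in control MTMs, 4.12 to 5.06 in control TAMs and 2.34 to 3.63 in MYC TAMs. Its interaction was -3.98 ± 0.64 (limma adjusted p = 0.0216).

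A further set was highest in control TAMs, with the other groups close together. Adamdec1, a secreted protease of macrophages and dendritic cells, was at 4.86, 3.82 and 5.20 in control TAMs against 0.30, 1.13 and 1.24 in control MTMs, 0.02, 0.14 and 0.54 in MYC TAMs beside 0.27 and 0.15 in MYC MTMs. Control TAMs stood apart and both MYC populations were near the level of no reads, so the interaction of -3.72 ± 0.56 (limma adjusted p = 0.0171, and 0.0825 with the fixed block) was nearly the control difference of 3.74 itself. H2-M2, a class I gene outside the classical loci, was at 5.89, 5.96 and 6.91 in control TAMs against 0.49 to 2.42 in the other 8 libraries, an interaction of -3.21 ± 0.55 (limma adjusted p = 0.0286). Dgat2, which makes triglycerides, was at 5.09, 5.06 and 4.66 in control TAMs against 1.07 to 3.10 elsewhere, an interaction of -3.57 ± 0.45 (limma adjusted p = 0.0108). Ocstamp, a membrane protein needed for osteoclast fusion and singled out because it passed under all 23 alternatives, was at 2.94, 3.29 and 3.08 in control TAMs and 0.14 to 0.90 in every other library. Its interaction was -2.41 ± 0.23 (limma adjusted p = 0.003). The plot of the largest negative interactions shows both arrangements.

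**Figure D3:**
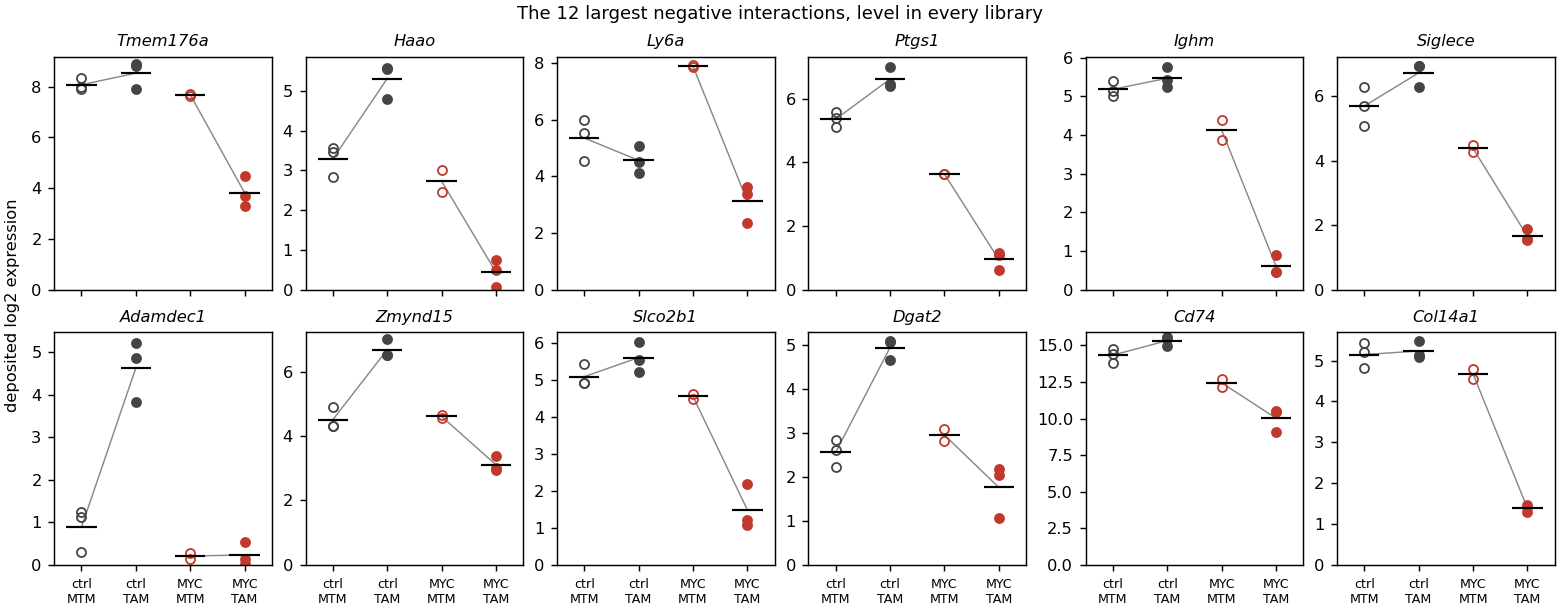
Deposited log2 level (vertical axis, from 0, own scale per gene) of the 12 named genes with the largest negative interaction, drawn with open points for MTMs and filled points for TAMs, dark for control and red for MYC mice. Bars are group means joined within a genotype. MYC TAMs have the lowest mean for 11 of the 12, Adamdec1 being low in both MYC populations.

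In 13 genes the cell type difference passed in both genotypes with opposite signs. The positive ones were Gpnmb, Atp6v0d2, Grap, Mmp8, S100a1 and Sord, in which control TAMs were below and MYC TAMs above their MTMs. Mmp8, a collagenase best known from neutrophils, was at 0.71 to 0.93 in control TAMs against 1.72 to 1.88 in control MTMs, 2.73 to 2.89 in MYC TAMs beside 1.05 and 1.81 in MYC MTMs, an interaction of 2.38 ± 0.32. Sord, sorbitol dehydrogenase, had 1.43 ± 0.20. The negative ones were Haao, Ptgs1, Zmynd15, Tmem119, Camkk1, Tagap and F11r. Zmynd15, a zinc finger protein whose span overlaps that of the chemokine Cxcl16, was at 7.01, 6.51 and 6.51 in control TAMs against 4.89, 4.31 and 4.32 in control MTMs, 3.37, 2.93 and 3.01 in MYC TAMs beside 4.56 and 4.66 in MYC MTMs, an interaction of -3.67 ± 0.32 (limma adjusted p = 0.00171). Tmem119, a membrane protein known as a marker of microglia, had -3.36 ± 0.37 (limma adjusted p = 0.00729).

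Genes of cell division had negative interactions without exception in the list examined, though few passed one by one. Of 30 mitosis and kinetochore genes 3 (10%, beside 1.24% of all genes) had a negative interaction that passed and none a positive one. All 3 calls were lost with the fixed block and with the epithelial covariate. The median over the 30 was -1.35, beside 0.01 over all genes. The value was negative for 30 of 30, MYC TAMs were the lowest group for 30 of 30, and the within-mouse differences of MYC mice lay below those of control mice for 28 (93.3%, against 18.5% of all genes). The mean log2 level of the list was 2.77, 3.50 and 3.26 in control TAMs against 3.44, 4.08 and 3.47 in control MTMs, 1.43, 1.44 and 1.52 in MYC TAMs beside 3.30 and 3.44 in MYC MTMs. MYC MTMs lay within the range of control TAMs and just below control MTMs, and MYC TAMs lay below every other library. Its median stayed between -1.72 and -1.05 under all alternatives.

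Plk1, a kinase of mitotic entry and spindle assembly, was at 3.58, 4.53 and 4.23 in control TAMs against 4.15, 4.70 and 4.10 in control MTMs, 1.67, 1.59 and 1.60 in MYC TAMs beside 4.10 and 4.43 in MYC MTMs. Its interaction was -2.44 ± 0.38 (limma adjusted p = 0.0193, and 0.0591 with the fixed block). Ccnb2, a cyclin of mitotic entry, was at 4.58, 5.41 and 4.96, then 5.49, 6.23 and 5.41 in control TAMs and MTMs, 2.94, 2.04 and 2.60 in MYC TAMs beside 5.66 and 5.63 in MYC MTMs, an interaction of -2.39 ± 0.45 (limma adjusted p = 0.0414, and 0.0711 with the fixed block). The 3 groups other than MYC TAMs overlapped for Plk1. Anln, an actin-binding protein of the cleavage furrow, passed with -1.46 ± 0.29. Mki67, Cdk1 and Top2a did not pass, with interactions of -0.80, -0.81 and -2.09.

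The mitotic promoters are shown because all values of the list had the same sign and its members are known to share start site elements. The letters searched, on both strands, were TTTGAA (the cell cycle homology region) and CCAAT, which do not overlap each other. TTTGAA was present in 20 of the 26 promoters found for the mitosis list (76.9%), in 3 of 25 of the replication list and in 18.1% of all 27025 promoters. CCAAT was present in 80.8%, 56.0% and 37.9%. Among the promoters of genes past the threshold the shares were 14.2% and 37.4%, near those of all promoters. The windows of Plk1 (chr7:122159185-122159484, plus strand) and Ccnb2 (chr9:70421505-70421804, minus strand), from RefSeq on GRCm38.p6, carry both, in capitals.
Plk1: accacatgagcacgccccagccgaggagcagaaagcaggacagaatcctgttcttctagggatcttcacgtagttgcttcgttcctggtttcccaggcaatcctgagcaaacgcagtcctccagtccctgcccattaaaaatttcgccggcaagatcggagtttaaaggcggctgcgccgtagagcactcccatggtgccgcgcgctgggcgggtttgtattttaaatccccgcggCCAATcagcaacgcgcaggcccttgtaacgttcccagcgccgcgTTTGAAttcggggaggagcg
Ccnb2: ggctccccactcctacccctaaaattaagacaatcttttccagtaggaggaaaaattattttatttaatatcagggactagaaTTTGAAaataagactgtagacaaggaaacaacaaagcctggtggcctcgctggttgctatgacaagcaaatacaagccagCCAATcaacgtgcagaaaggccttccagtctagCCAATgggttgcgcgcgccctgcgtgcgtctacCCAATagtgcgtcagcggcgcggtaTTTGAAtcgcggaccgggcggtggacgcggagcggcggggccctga

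DNA replication and nucleotide supply had a median nearer 0. Of 30 genes 4 (13.3%, beside 1.24% of all genes) had a negative interaction that passed and none a positive one, with a median of -0.66. Rrm2, the ribonucleotide reductase subunit that limits nucleotide supply, was at 4.10, 4.90 and 4.58 in control TAMs against 4.66, 5.17 and 4.91 in control MTMs, 1.98, 2.06 and 1.43 in MYC TAMs beside 4.55 and 4.79 in MYC MTMs, an interaction of -2.46 ± 0.37 (limma adjusted p = 0.0171). Mcm2, a subunit of the replicative helicase, had -1.98 ± 0.31 (limma adjusted p = 0.0206, and 0.0541 with the fixed block), and Mcm3 and Ccne1 passed with -1.31 and -1.79. Pcna, the polymerase clamp, had 0.88 and did not pass.

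MHC class II genes stood on the negative side. Of 15 genes 3 (20%, beside 1.24% of all genes) had a negative interaction that passed and none a positive one, and the median was -1.43. All 3 calls were lost with the fixed block and with the epithelial covariate. Cd74, the invariant chain that escorts class II molecules, was at 15.57, 15.45 and 14.98 in control TAMs against 14.79, 13.83 and 14.40 in control MTMs, 10.52, 10.47 and 9.10 in MYC TAMs beside 12.16 and 12.74 in MYC MTMs. No group overlapped another, with control TAMs highest and MYC TAMs lowest, and the interaction was -3.41 ± 0.67 (limma adjusted p = 0.0453, and 0.0977 with the fixed block). H2-Oa and H2-DMa, which edit or regulate peptide loading, passed with -2.97 ± 0.43 and -1.72 ± 0.34 (limma adjusted p = 0.0148 and 0.0486) and lie 24.3 kb apart on chromosome 17. The classical chains H2-Eb1, H2-Ab1 and H2-Aa, at -3.21, -2.91 and -2.39, and the class II transactivator Ciita, at -1.25, did not pass. Dendritic cells, which also carry class II molecules, had 19 markers with a summed level of 587 to 735 in control TAMs, 458 to 702 in control MTMs, 198 to 292 in MYC TAMs and 468 to 493 in MYC MTMs, and their part in the class II values was not tested. In the class I list H2-M2 was the only one of 21 genes that passed, and the median was -0.31.

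Of 24 lipid-associated macrophage genes 16.7% passed, beside 1.24% of all genes, and the median was 0.68. A positive interaction passed for 3 (Gpnmb, Spp1 and Fabp4) and a negative one for 1. The exception was Lpl, the lipoprotein lipase, at 4.95, 4.75 and 4.97 in control TAMs against 5.25, 4.67 and 5.06 in control MTMs, 0.97, 1.05 and 1.85 in MYC TAMs beside 3.69 and 4.86 in MYC MTMs, an interaction of -2.87 ± 0.49 (limma adjusted p = 0.0282). Trem2, the lipid receptor of these cells, had 0.83 and Plin2, a lipid droplet coat protein, 1.48, and neither passed. Of the 17 subunits of the vacuolar ATPase Atp6v0d2 was the one that passed, with a list median of 0.44. None of 40 lysosomal protease, hydrolase and membrane genes passed, and their median was 0.04, while MYC TAMs were the highest group for 26 of the 40. None of the 28 genes of the MiT/TFE, Rag GTPase and PIKfyve list passed (median 0.12).

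The matrix list went both ways. Of 26 matrix and matrix protease genes 2 were positive (Hpse and Mmp8) and 4 negative (Adamdec1, Col14a1, Mmp2 and Tgfbi), with a median of -0.36. The share called was 23.1%, beside 1.24% of all genes. Mmp2, a gelatinase, was at 6.78, 6.20 and 6.80 in control TAMs against 4.01, 4.70 and 4.79 in control MTMs, 1.58, 1.79 and 2.60 in MYC TAMs beside 3.02 and 3.01 in MYC MTMs, an interaction of -3.12 ± 0.46 (limma adjusted p = 0.0162). Tgfbi, a matrix protein that TGF-beta induces, had -2.99 ± 0.41 (limma adjusted p = 0.0129). Markers of resident macrophages had values on both sides: of 28 genes F13a1 was positive, Stab1 negative, and the median interaction was -0.08, while the median TAM minus MTM difference was -2.53 in control and -2.79 in MYC mice. Alternative activation genes had 1 positive call of 22 (Ear2) and a median of 0.34, and monocyte genes 1 in each direction (F10 and Cx3cr1) of 25, with a median of -0.45.

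Metabolic lists held few calls in number. The share called was 3.03% of MYC targets, 3.57% of ATF4 targets, 6.45% of glycolysis genes and 6.25% of LXR targets. Over all genes it was 1.24%, and the lists were chosen with earlier results of these data known. Of 33 MYC target and ribosome biogenesis genes Cad, which starts pyrimidine synthesis, passed with -1.46 ± 0.26 (limma adjusted p = 0.0327, and 0.128 with the fixed block), and the median was -0.70 with 30 of 33 values negative. Of 28 ATF4 target and amino acid supply genes Slc7a5, the carrier of large neutral amino acids, passed with -2.90 ± 0.47 (limma adjusted p = 0.0218, and 0.0741 with the fixed block) and the median was -0.53. It was at 2.91, 3.85 and 3.10 in control TAMs against 1.83, 2.49 and 2.21 in control MTMs, 1.61, 1.10 and 0.83 in MYC TAMs beside 2.73 and 3.19 in MYC MTMs, so that TAMs were above MTMs in each control mouse and below them in each MYC mouse. Of 31 glycolysis and hypoxia genes Car9, a carbonic anhydrase that hypoxia induces, and Pkm, a pyruvate kinase, passed, the first with -1.52 ± 0.27 and the second with a ratio 2.01-fold lower (limma adjusted p = 0.0347 and 0.0436). Lpcat3, which remodels phospholipids, was the only one of 16 LXR target and cholesterol efflux genes that passed, with -0.99 ± 0.18, and its span overlaps Emg1. None of 31 oxidative phosphorylation genes, 23 cholesterol synthesis and uptake genes or 38 cytosolic ribosomal protein genes passed, with medians of 0.02, 0.00 and -0.05. The median of the ribosomal protein genes had the opposite sign under 10 of the 23 alternatives, at 0.37 with the fixed block, 0.96 without MYC TAM mice 4 and 6 and 1.27 with the epithelial covariate.

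Inflammatory lists had negative medians with few or no calls, where 1.24% of all genes passed. The median over the 9375 genes with a mean level of 1 or more was also negative, at -0.15. None of 36 interferon response genes passed (median -0.50, MYC TAMs lowest for 30), none of 28 inflammatory cytokine and NF-kB feedback genes (median -0.73) and none of 26 chemokines (median -0.47). Of 22 complement genes Cfb, a protease of the alternative pathway, passed with -2.82 ± 0.45 (limma adjusted p = 0.0216, and 0.0962 with the fixed block), and the median was -0.37. It was at 5.82, 7.09 and 5.88 in control TAMs against 7.38, 7.43 and 7.65 in control MTMs, 3.85, 4.30 and 4.00 in MYC TAMs beside 8.07 and 8.11 in MYC MTMs, lower in TAMs in each mouse and by more in the MYC mice. Among 26 engulfment and scavenger receptor genes Stab1 and Elmo1, an engulfment adaptor with -1.29 ± 0.22, were negative. Hspa1b, a heat shock chaperone with a near-identical copy, was the only one of 19 dissociation and heat shock genes that passed, with -1.56 ± 0.30.

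Markers of other cell types were counted in the same way, beside the 1.24% of all genes that passed. For mammary epithelium the share was 7.14%. Mammary epithelium had 2 negative calls of 28, Cdh1 (E-cadherin, -2.58 ± 0.51, limma adjusted p = 0.0453) and Spint1 (a protease inhibitor, -2.34 ± 0.34, limma adjusted p = 0.0148), and a median of -1.26. Both calls were lost with the fixed block (adjusted p = 0.0807 and 0.086), and the median was then -0.66, and -0.39 without MYC TAM mice 4 and 6. Their levels moved in the direction of the 174 negative genes. With the epithelial marker level as a covariate 38 genes passed, 8 positive and 30 negative, 32 of them among the 216, and the median of the mitosis list was -1.24 and that of the MHC class II list -1.35. Some other lists came nearer to 0 with this covariate. The median of the vacuolar ATPase went from 0.44 to 0.17 and that of the lipid-associated list from 0.68 to 0.39. That of LXR targets went from -0.70 to -0.38, that of MHC class I from -0.31 to -0.04 and that of dissociation and heat shock genes from -0.53 to -0.03. Others moved away from 0: interferon response from -0.50 to -0.72, complement from -0.37 to -0.57 and T and NK cell markers from -0.59 to -0.85. Resident macrophage markers went from -0.08 to -0.57, oxidative phosphorylation from 0.02 to 0.30 and ribosomal protein genes from -0.05 to 1.27. T and NK cell markers had no call of 24 (median -0.59), dendritic cell markers none of 19 (median -0.33), fibroblast markers, which like Col14a1 were lowest in MYC TAMs (summed level 5.47 to 15.9 there and 19.1 to 106 elsewhere), none of 19 (median -0.16) and adipocyte and red cell markers none of 12 (median -0.06). Endothelial markers had 1 positive call of 17, Flt1, with 0.77 ± 0.14 at levels of at most 1.03, and granulocyte and mast cell markers 1 of 19, Mmp8. In all, 23 of the 35 lists held a gene past the threshold, as the plot of the interaction by gene list shows.

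**Figure D4:**
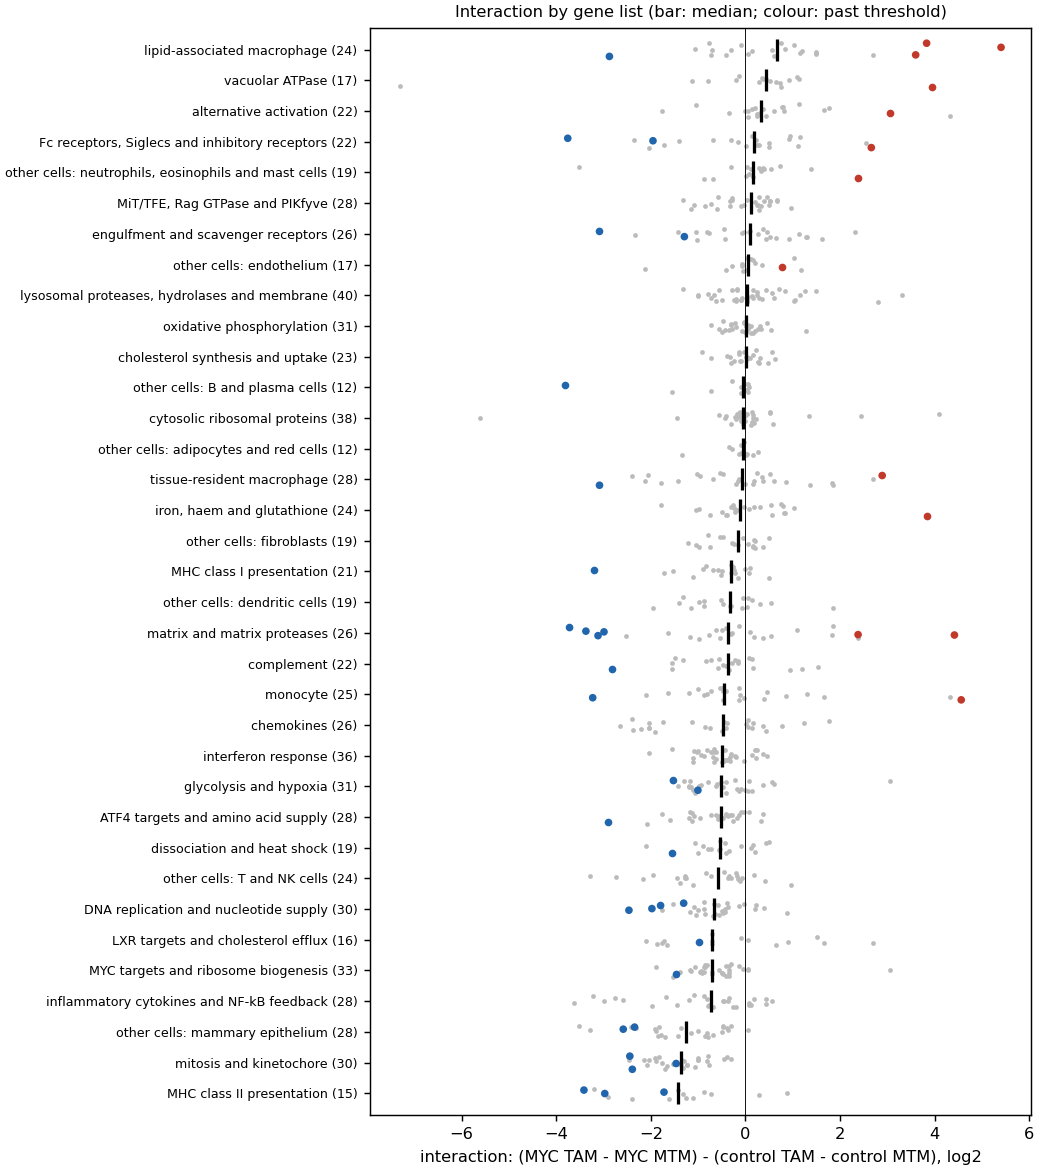
Interaction (horizontal axis, log2) of the measured members of the 35 gene lists, 1 row per list with the number of members in brackets. Grey points did not pass, red and blue points passed as positive and negative, and the bar is the list median. Medians run from -1.43 for MHC class II presentation to 0.68 for the lipid-associated macrophage list.

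Positions of the genes were compared as well. Of the 216 genes 214 had coordinates in the GENCODE annotation of GRCm38, and 18 pairs of them lay within 100 kb of each other, all 18 with the same sign. They include F7 with F10, Tmem176a with Tmem176b, H2-Oa with H2-DMa, Mmp2 with Lpcat2 (1.9 kb) and Ocstamp with Slc13a3 (4.6 kb).

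The 11 genes that passed under every alternative were Grap, S100a1 and Lrrc27 on the positive side and Haao, Ptgs1, Zmynd15, Ighm, Col14a1, Tmem119, Cx3cr1 and Ocstamp on the negative side. Without each library in turn 13 of the 216 passed every time. The number of genes past the threshold varied widely, and negative genes outnumbered positive ones in each of these fits, as the plot of counts under each alternative shows.

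**Figure D5:**
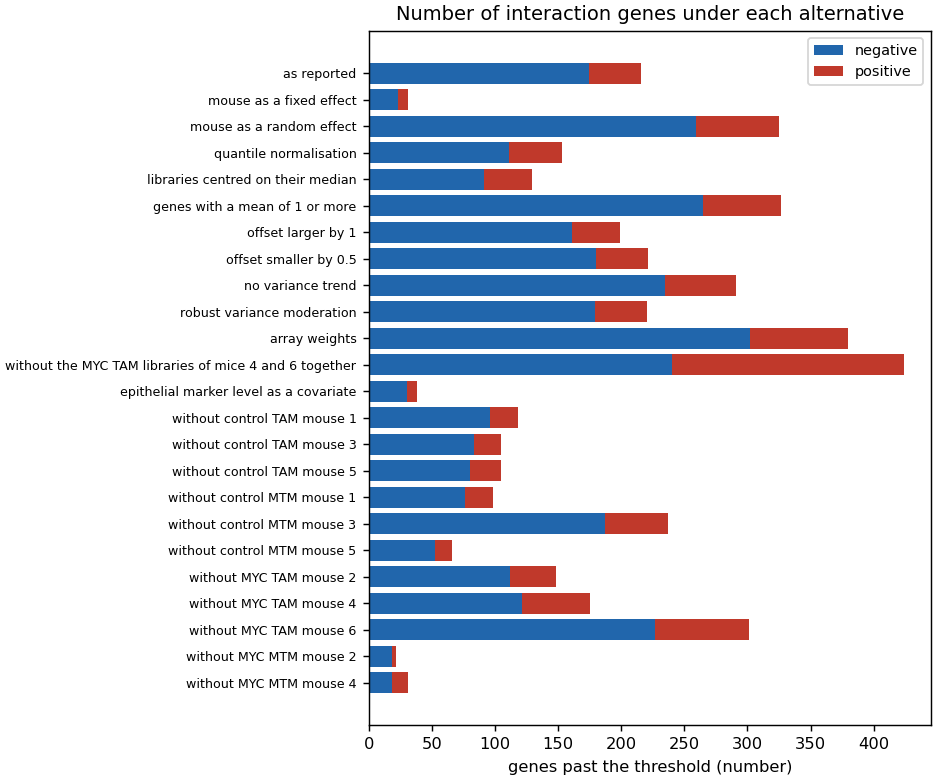
Number of genes past the threshold (horizontal axis), split into negative (blue) and positive (red), as reported and under 23 alternatives. The total is 216 as reported, and runs from 21 without MYC MTM mouse 2 to 424 when mice 4 and 6 are left out of MYC TAMs.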

How the data were processed

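Per the labels' protocols, 500 ng of RNA with integrity numbers of 3.3 to 9.6 was selected for poly-A and made into stranded libraries with 8 PCR cycles. Per the submitters' processing notes, HISAT2, DESeq2 and the build mm10 (GRCm38.p5) were used, with no role given. The authors deposited log2 expression values for 17475 genes. Their formula and any use of strand are not given in the sources used here. The low values of a library were whole multiples of 1 read, within 0.1 read, for 92.6% to 97% of those tested, which gave relative depths only.

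The 4 group means were fitted as a linear model to the log2 values with limma 3.58.1 in R 4.3.3, with moderated variances that follow the level and no block for the mouse. Tests were two-sided, adjusted by Benjamini-Hochberg over all genes, with a threshold of 0.05. The fitting was tested on simulated data with normal noise and no mouse effect. Interactions were planted only in genes with a mean log2 level above 2, so recovery at lower levels was not tested. A true interaction of 1 was recovered for 2 of 50 genes and a true interaction of 2 for 37 of 50. At 3 and 4 it was recovered for 41 and 49 of 50, with 9 false calls in all. Genes and lists without a call may thus hold interactions near 1 that the fit misses. Folds are on the log2 of a value plus 1 and understate low genes. Replicates are separate mice. TAMs and MTMs of a mouse share its number: deviations from group means correlated at 0.176, 0.211 and 0.0779 within control mice and at -0.189 to 0.0134 between them, and the MYC pairs cannot be checked, since 2 MTM libraries mirror each other. The mouse as a fixed or random block, other scalings, filters, offsets, variance settings, an epithelial covariate and each library left out were alternatives.

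The genes named were the 12 largest in each direction past the threshold with reads in every group and a proper symbol, up to 2 per list past it, the gate genes, Myc and S100a8, and others said to be singled out. Other list members and lineage genes are given by value. The 35 lists (859 of 892 members measured, 13 by an older symbol) and the comparisons were chosen with earlier results of these data known. The 26 entries named as dates or numbers and 68 that share a symbol stayed in the fit and were not named. Promoter windows, 250 bases before to 50 after a start, are from RefSeq. Positions are from GENCODE. Python 3.11.15 was used for counts and figures. Some genes are not reported here.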

Additional observations from a re-analysis of the deposited data

Results flagged for a closer look

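The contrast between TAMs and MTMs differed between the genotypes, by the test of the difference itself, in 216 genes. In 13 of them the contrast passed in each genotype and had opposite signs. The interactions of the 6 positive ones were 5.40 for Gpnmb, 3.93 for Atp6v0d2, 3.62 for Grap, 2.38 for Mmp8, 2.18 for S100a1 and 1.43 for Sord. The interactions of the 7 negative ones were -4.32 for Haao, -3.95 for Ptgs1, -3.67 for Zmynd15, -3.36 for Tmem119, -2.17 for Camkk1, -2.15 for Tagap and -1.68 for F11r. For F11r, an adhesion molecule of cell junctions, levels were 8.49, 8.25 and 8.13 in control TAMs against 7.35, 7.65 and 7.44 in control MTMs, 5.74, 5.64 and 5.69 in MYC TAMs beside 6.53 and 6.60 in MYC MTMs, with no overlap between groups. With the mouse as a fixed block Mmp8, Sord, Camkk1, Tagap and F11r lost their calls, and with the epithelial covariate these and Gpnmb and Atp6v0d2 did. No group has more than 3 libraries, so single libraries were not examined for standing apart within a group.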

How the results depend on the processing

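Counts of genes past the threshold are given as all, positive and negative, against 216, 42 and 174 as reported. With the replicate block for the mouse as a fixed effect they were 31, 8 and 23, and with it as a random effect 325, 66 and 259. Quantile normalisation gave 153, 42 and 111, and centring each library on its median 129, 38 and 91. Centring raised the median interaction of all genes from 0.012 to 0.102 and the positive share of calls from 19.4% to 29.5%. Genes with a mean of 1 or more gave 327, 62 and 265 with fewer genes tested, and array weights 380, 78 and 302. With both mice 4 and 6 left out of MYC TAMs they were 424, 184 and 240, and with the epithelial covariate 38, 8 and 30. Leaving out 1 library at a time gave 21 to 301 in all, 3 to 74 positive and 18 to 227 negative. The lowest totals came without MYC MTM mouse 2 (21), MYC MTM mouse 4 (31), control MTM mouse 5 (66), control MTM mouse 1 (98), control TAM mouse 3 or 5 (105 each) and control TAM mouse 1 (118). The cause of these changes was not tested. The other 4 settings stayed within 1.5 times the total. Of 1263 values of named genes under the 23 alternatives, 919 kept direction and call, 333 lost the call, 7 gained it and 4 changed sign. Those 4 were of Folr2, whose 0.24 did not pass: it was 0.73 without MYC TAM mouse 2, -0.55 with the fixed block and without MYC TAM mouse 6, -0.73 without MYC TAM mice 4 and 6, and -1.32 with the epithelial covariate. Depth is known only relative to the other libraries, so genes near the level of no reads carry no interval here.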
